A study of Caenorhabditis elegans with 14 samples.

Results

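The question put to these data was whether loss of *hrpk-1* changes a miRNA by the same factor in L4 larvae as in embryos. The comparison used 12 of the 14 small RNA libraries of the series, with 3 libraries in each of 4 groups. These were *hrpk-1(zen17)* L4 larvae, wild type L4 larvae, *hrpk-1(zen17)* embryos and wild type embryos. The 2 libraries of a further allele were left out because that allele was sequenced at L4 alone. For each miRNA strand, the log2 change in *hrpk-1(zen17)* relative to wild type in embryos was subtracted from the same change at L4. The result is called the interaction. A positive interaction means that the change at L4 lies above the change in embryos, and a negative interaction that it lies below. The deposited table lists 371 mature strands, and 250 of them had at least 10 counts in at least 3 of the 12 libraries. These 250 strands, 154 guides and 96 stars, were tested.

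The gene *hrpk-1* encodes a KH-domain RNA-binding protein of the nematode *C. elegans*. *zen17* is a null allele made by CRISPR/Cas9 editing that removes nearly all of the locus, so that no HRPK-1 protein is detected. All 4 groups have the N2 strain background, and all animals were grown on NGM plates with OP50 bacteria. The wild type libraries are N2 itself. Small RNA libraries hold no information on the *hrpk-1* mRNA, so the mutant label could not be checked against its target here. How narrowly the embryos were staged, and whether replicates came from separate cultures, is not given in the sources used here. The p-values therefore measure the spread between these libraries, which may be technical. Because whole animals were sequenced, fewer cells of a type and less miRNA per cell cannot be told apart.

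miRNAs are short RNAs cut from hairpin precursors and loaded into Argonaute proteins, which they guide to target mRNAs. Of the strands of a hairpin, the guide is mostly kept and the star (miR*) is mostly discarded. In *C. elegans*, the set of miRNAs turns over as the animal develops. The mir-35 family is made in the germline and embryo and is needed for embryonic development, whereas lin-4 and members of the let-7 family come on in larvae and time the divisions and fates of skin cells. A genotype effect that is read at one stage alone can therefore fall on miRNAs that the other stage hardly makes.

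Library totals lay between 1919348 and 19762103 counts. Wild type embryo replicate 3 was the shallowest, and in it 3 counts correspond to 1.56 ppm of the table total, against 0.152 to 0.430 ppm in the other libraries. Wild type L4 replicate 2 also stood apart, with a TMM scaling factor of 1.43 and a summed level of 64453 CPM for the larval list described below, against 147546 and 230266 CPM in the other wild type L4 libraries. The stage labels could be read from the miRNAs themselves. The mir-35 family took between 0.201% and 0.218% of counts in *hrpk-1(zen17)* L4 larvae and between 0.140% and 0.386% in wild type L4 larvae. In *hrpk-1(zen17)* embryos it took between 52.9% and 62.8%, and in wild type embryos between 51.4% and 77.6%. The groups of each stage overlapped in this share. In embryos the overlap rests on wild type replicate 3 alone, the shallowest library, at 51.4%. Wild type embryo replicates 1 and 2 held 77.6% and 72.8%, above every *hrpk-1(zen17)* embryo library.

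The change in *hrpk-1(zen17)* differed between the stages for 12 of the 250 strands, which is 4.8% of those tested (edgeR's quasi-likelihood test, Benjamini-Hochberg adjusted p under 0.05). The interaction was negative for 10 strands (4%) and positive for 2 (0.8%). The negative ones were miR-239a-5p and its star miR-239a-3p, miR-239b-5p, miR-230-3p, lin-4-5p, miR-238-3p, miR-2208b-3p, miR-34-5p, miR-5592-3p and miR-784-5p. The positive ones were miR-70-3p and the star strand miR-74-5p. Guides made up 10 of the 12 and stars 2. At an unadjusted p under 0.05 there were 43 strands, 33 negative and 10 positive. Over all 250 strands the median interaction was -0.19, with 150 strands below 0 and 100 above. The median moved to 0.03 with RLE size factors and to -0.54 with total counts as the scale, so directions within about this shift depend on the scale. The calls split into 3 positive and 8 negative with RLE size factors, and into 7 positive and 12 negative with DESeq2. Without wild type embryo replicate 3 there were 15 calls, without wild type L4 replicate 2 there were 11, and without both there were 18, 11 of them among the 12.

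Taken stage by stage, the counts of calls differed. In embryos, 30 strands (12%) passed the test, 26 higher (10.4%) and 4 lower (1.6%) in *hrpk-1(zen17)*. The split was 23 higher and 13 lower with RLE size factors, 24 and 22 with DESeq2, and 25 and 1 with total counts as the scale. The count rested partly on wild type embryo replicates 1 and 2, without which it was 17 and 18. It also moved with a library of the other stage. Without wild type L4 replicate 2 it was 45, with 28 higher and 17 lower. It was 50, with 37 higher and 13 lower, without wild type L4 replicate 2 and wild type embryo replicate 3. At L4, 0 strands passed (0%), although 36 had an unadjusted p under 0.05 and DESeq2 called 6. The smallest adjusted p at L4 was 0.150. Without wild type L4 replicate 2, 5 strands passed at L4, all of them lower in *hrpk-1(zen17)*. None of the 12 strands with an interaction was among the calls at L4, and 11 of them were among the calls in embryos. In embryos the *hrpk-1(zen17)* libraries were all above wild type for 10 of the 12 strands, as for 16.8% of all strands tested, and all below for 2, as for 10.4%. At L4 they were all above wild type for 2, as for 15.2% of all strands, and all below for 0, as for 7.6%. These counts come from the same libraries as the interaction and do not add separate evidence for it.

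**Figure D1:**
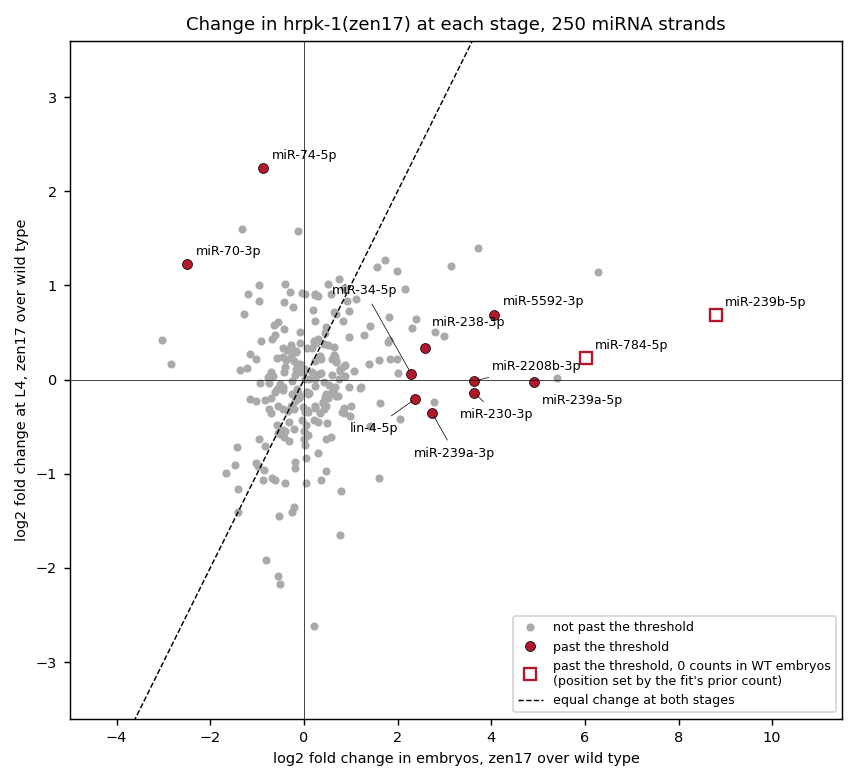
Each point is a miRNA strand, with its log2 change in *hrpk-1(zen17)* over wild type in embryos on the x axis and at L4 on the y axis; the dashed line marks an equal change at both stages. The 10 strands with a negative interaction lie to the right and near the horizontal line of no change, between -0.36 and 0.69 at L4, whereas miR-70-3p and miR-74-5p lie above 0 at L4 and below 0 in embryos. Open squares mark called strands with 0 counts in wild type embryos, whose x position depends on a prior count, as does that of some grey points far to the right.

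Of the families read, the mir-238 family had the most calls. miR-238, miR-239a and miR-239b share a seed, and members of the group have been linked to stress resistance and lifespan in *C. elegans*. All 3 guides were tested and all 3 had a negative interaction past the threshold, beside 4% of all strands tested. miR-239a-5p and miR-239b-5p may share reads, so their calls may not be separate. In the WBcel235 annotation, mir-238 lies on chromosome III from 8867328 to 8867425, on the minus strand. mir-239a and mir-239b lie near each other on chromosome X, from 11792445 to 11792542 on the plus strand and from 11791302 to 11791399 on the minus strand. All of these lie between protein-coding genes.

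miR-238-3p was the most abundant of the 10 strands with a negative interaction in embryos. In L4 larvae its level was 4922, 6371 and 5322 CPM in *hrpk-1(zen17)* and 5127, 4181 and 3839 CPM in wild type, so the groups overlapped. In embryos it was 2563, 2345 and 2116 CPM in *hrpk-1(zen17)*, against 356, 391 and 430 CPM in wild type. Every mutant embryo library was above every wild type embryo library, and about 6 times as high (5.97-fold, log2 2.58, standard error 0.27, adjusted p = 9.97e-06). At L4 the log2 change was 0.34 (standard error 0.26, adjusted p = 0.563). The interaction was -2.24 (standard error 0.37, adjusted p = 0.000906). Seen along development, the level at L4 exceeded that in embryos by 1.24 on the log2 scale in *hrpk-1(zen17)* and by 3.48 in wild type.

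miR-239a-5p had similar levels in *hrpk-1(zen17)* embryos and larvae. Its level was 16.2, 20.7 and 13.2 CPM in *hrpk-1(zen17)* L4 larvae and 13.1, 22.4 and 15.8 CPM in wild type L4 larvae. In *hrpk-1(zen17)* embryos it was 13.1, 24.7 and 12.3 CPM, against 0.716, 0.626 and 0 CPM in wild type embryos. The mutant embryos thus lay near the levels of the larvae, and the wild type embryos far below them. The log2 change in embryos was 4.92 (standard error 0.53, adjusted p = 9.97e-06), at L4 it was -0.03 (standard error 0.37), and the interaction was -4.95 (standard error 0.66, adjusted p = 0.000289). The wild type embryo levels rest on 5, 4 and 0 counts, so the size of the embryo change is less certain than its direction.

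The star of the same hairpin, miR-239a-3p, had the same direction. It stood at 19.2, 19.3 and 16.7 CPM in *hrpk-1(zen17)* L4 larvae and 26.9, 16.0 and 28.0 CPM in wild type L4 larvae. In *hrpk-1(zen17)* embryos it stood at 9.93, 22.4 and 7.77 CPM, against 1.72, 1.88 and 2.68 CPM in wild type embryos. The embryo groups did not overlap and the L4 groups did. The interaction was -3.10 (standard error 0.58, adjusted p = 0.00261).

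miR-239b-5p had 0 counts in all 3 wild type embryo libraries and 32, 110 and 19 counts in *hrpk-1(zen17)* embryos. Set against a floor of 3 counts over the wild type embryo group, its level was at least 23.7-fold higher in the mutant embryos, and the interaction was at most -3.91 (adjusted p = 0.00765). At L4 it held 2.77, 1.85 and 2.19 CPM in *hrpk-1(zen17)* and 1.60, 0.562 and 2.14 CPM in wild type, and these groups overlapped. miR-239a-5p and miR-239b-5p are close paralogs, and how reads that fit both were assigned is not given in the sources used here. The division of counts between them is therefore uncertain. Both show the same direction, but reads assigned to both would also give this, so it does not settle the doubt.

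**Figure D2:**
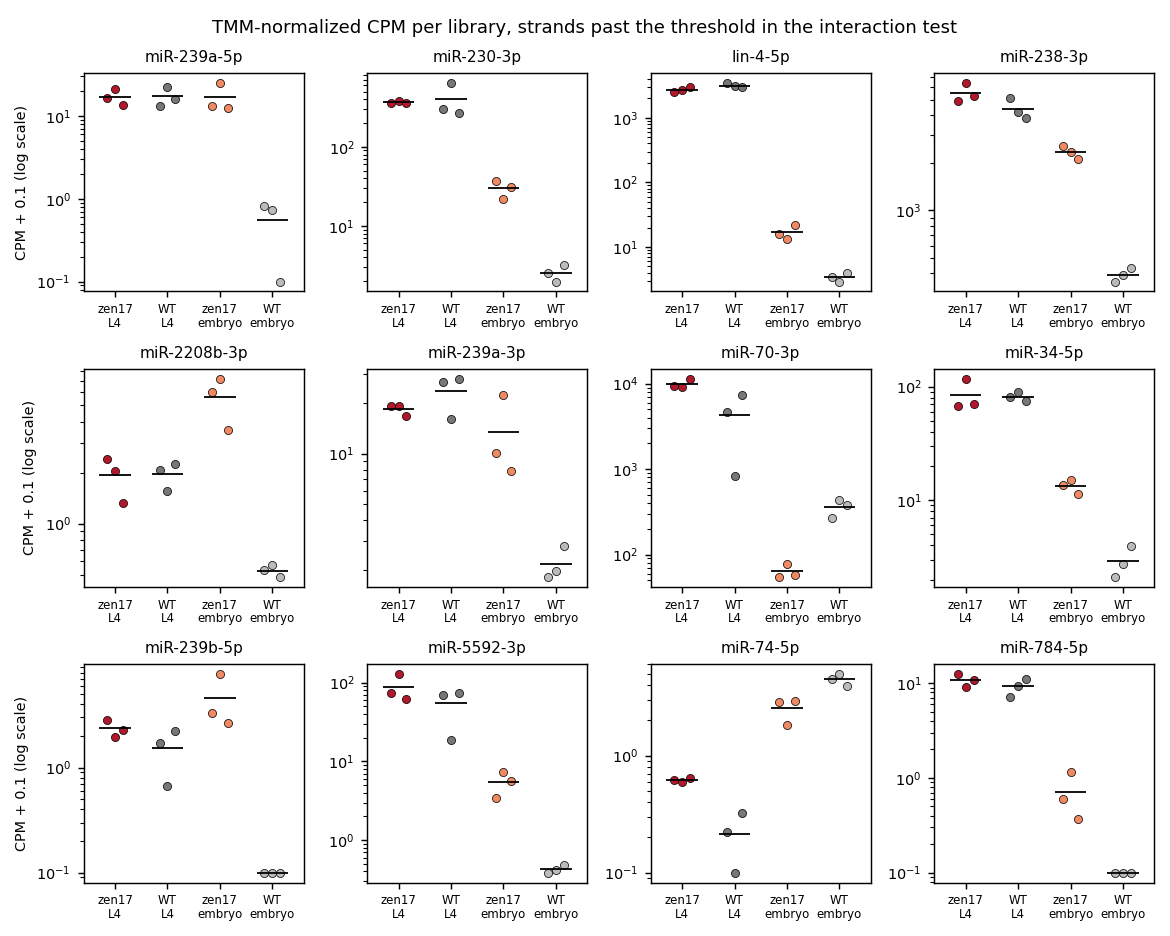
TMM-normalized level of each of the 12 called strands in every library, as CPM plus 0.1 on a log axis, with the 3 libraries of a group as points and their mean as a line. Groups run from *hrpk-1(zen17)* L4 and wild type L4 to *hrpk-1(zen17)* embryos and wild type embryos. In all 12 panels the embryo groups do not overlap; the L4 groups overlap in the 10 panels with a negative interaction and are apart for miR-70-3p and miR-74-5p.

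lin-4-5p, the founding heterochronic miRNA, which represses *lin-14* to let larvae pass beyond the first larval stage, was also among the 12. Its gene lies on chromosome II from 5902254 to 5902347, in an intron of F59G1.4 on the same strand. In L4 larvae it reached 2530, 2649 and 3016 CPM in *hrpk-1(zen17)* and 3436, 3071 and 2952 CPM in wild type. In embryos it was at 15.8, 13.3 and 21.7 CPM in *hrpk-1(zen17)*, against 3.29, 2.82 and 3.83 CPM in wild type. The embryo libraries separated completely and the L4 libraries did not. lin-4-5p was 5.17-fold higher in mutant embryos (log2 2.37, standard error 0.31, adjusted p = 5.36e-05) and differed by -0.21 at L4 (standard error 0.26, adjusted p = 0.792), which gave an interaction of -2.58 (standard error 0.40, adjusted p = 0.000699). The extra lin-4-5p in mutant embryos equalled 0.498% of its level in mutant L4 larvae.

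The let-7 family members miR-794-5p and miR-795-5p are not on the list of larval miRNAs read here. In *hrpk-1(zen17)* embryos they had 11, 19 and 5 and 57, 3 and 25 counts. Wild type embryos had 1, 1 and 2 and 9, 9 and 4. With them, 2 of the 6 let-7 family members tested passed in embryos, beside 12% of all strands tested. These were miR-84-5p and only 1 of miR-794-5p and miR-795-5p. Since lin-4 is a larval miRNA and the age of the embryos is not given, the list was read beside these results. Of its 6 miRNAs, 3 were higher in *hrpk-1(zen17)* embryos by the test, namely lin-4-5p, miR-237-5p and miR-84-5p, beside 10.4% of all strands tested. miR-237-5p, the sister of lin-4 in sequence, held 6.95, 11.2 and 11.1 CPM in *hrpk-1(zen17)* embryos, against 2.72, 2.97 and 2.68 CPM in wild type embryos. miR-84-5p, of the let-7 family, held 94.7, 62.9 and 68.3 CPM in *hrpk-1(zen17)* embryos, against 17.5, 13.5 and 34.5 CPM in wild type embryos. For these miRNAs all mutant embryo libraries were above all wild type embryo libraries, and for miR-84-5p this also held at L4. The interactions were -1.40 for miR-237-5p (standard error 0.42, adjusted p = 0.0771) and -1.39 for miR-84-5p (standard error 0.47, adjusted p = 0.101), and neither passed the threshold. In the alternatives miR-84-5p passed in 5 of 24, among them DESeq2 and the omission of wild type embryo replicate 3, and miR-237-5p passed in 2 of 23.

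The other 3 larval miRNAs of the list gave no such difference. let-7-5p, which drives the step from larva to adult, held 7.95, 25.4 and 12.2 CPM in *hrpk-1(zen17)* embryos and 32.9, 8.46 and 21.4 CPM in wild type embryos. miR-48-5p, the most abundant of the list at L4, held 122, 205 and 192 CPM in *hrpk-1(zen17)* embryos and 228, 142 and 213 CPM in wild type embryos. miR-241-5p held 5.66, 12.4 and 7.50 CPM in *hrpk-1(zen17)* embryos and 9.88, 5.64 and 6.51 CPM in wild type embryos. Mutant and wild type embryos overlapped in all of these, with log2 changes of -0.46, -0.17 and 0.21. The excess in mutant embryos, as a share of the level in mutant L4 larvae, was 1.02% for miR-84-5p and 0.367% for miR-237-5p. It was -0.021% for let-7-5p, -0.016% for miR-48-5p and 0.020% for miR-241-5p. Beside 0.498% for lin-4-5p, the same share for the other strands with a negative interaction was 276% for miR-2208b-3p, 196% for miR-239b-5p, 97.2% for miR-239a-5p, 61.3% for miR-239a-3p, 35.2% for miR-238-3p, 12.2% for miR-34-5p, 7.44% for miR-230-3p, 5.75% for miR-5592-3p and 5.63% for miR-784-5p. Summed over the larval list, *hrpk-1(zen17)* embryos held between 253 and 330 CPM and wild type embryos between 176 and 295 CPM. Most of this sum is miR-48-5p, with means of 173 CPM in *hrpk-1(zen17)* embryos and 195 CPM in wild type embryos. The sum therefore says little about the scarcer members. The age of the embryos cannot be told apart from the genotype with these libraries.

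**Figure D3:**
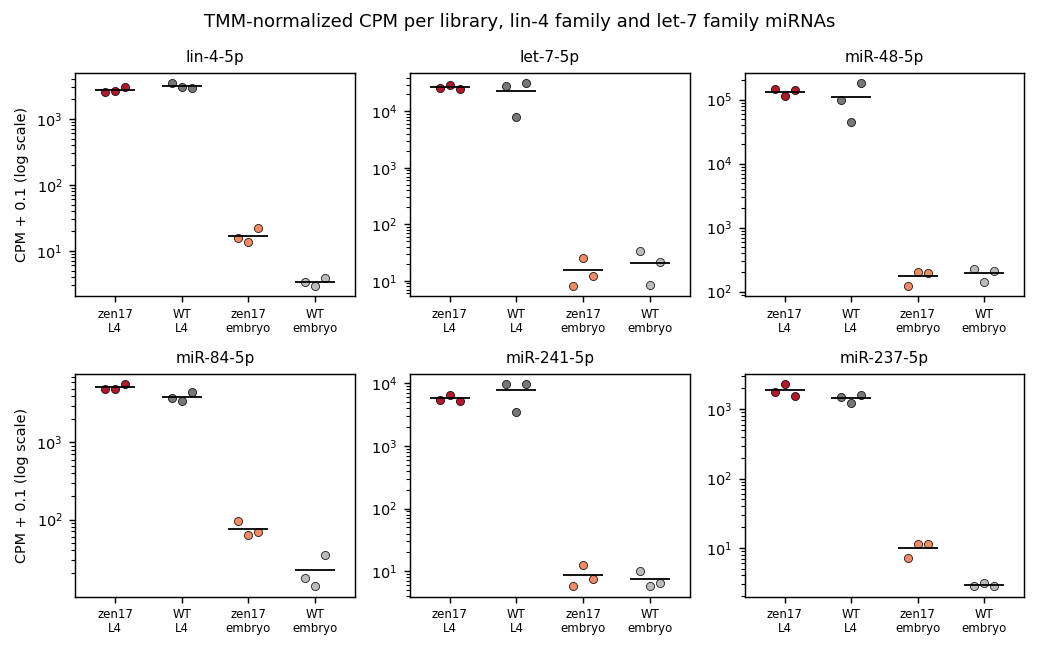
TMM-normalized level of lin-4-5p, let-7-5p, miR-48-5p, miR-84-5p, miR-241-5p and miR-237-5p in every library, as CPM plus 0.1 on a log axis, with group means as lines. All 6 are far higher at L4 than in embryos in both genotypes; in embryos the *hrpk-1(zen17)* and wild type libraries are apart for lin-4-5p, miR-84-5p and miR-237-5p and overlap for the other 3.

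miR-230-3p had the next largest fitted interaction after miR-239a-5p among the called strands with counts in every group. Its gene lies between protein-coding genes on chromosome X from 5803892 to 5803989. Its level was 357, 385 and 355 CPM in *hrpk-1(zen17)* L4 larvae and 304, 639 and 264 CPM in wild type L4 larvae. In *hrpk-1(zen17)* embryos it was 36.6, 21.7 and 30.8 CPM, against 2.43, 1.88 and 3.06 CPM in wild type embryos. The larval groups overlapped, while mutant embryos were 12.4-fold higher than wild type embryos, with no overlap. The interaction was -3.77 (standard error 0.53, adjusted p = 0.000289), and became -3.15 on leaving out wild type L4 replicate 2, which was the highest of the L4 libraries. From embryo to L4 the level increased by 3.62 in *hrpk-1(zen17)* and by 7.40 in wild type on the log2 scale.

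miR-34-5p belongs to a family conserved in mammals, where it acts downstream of p53, and in *C. elegans* it has been tied to DNA damage and stress responses. It lies on chromosome X from 2969752 to 2969848. It was at 67.0, 117 and 70.5 CPM in *hrpk-1(zen17)* L4 larvae and at 80.6, 89.0 and 74.4 CPM in wild type L4 larvae. It was at 13.5, 14.9 and 11.2 CPM in *hrpk-1(zen17)* embryos, against 2.01, 2.66 and 3.83 CPM in wild type embryos. Mutant embryos were 4.90-fold higher, with no overlap, and L4 larvae did not separate. The interaction was -2.23 (standard error 0.46, adjusted p = 0.00563). The call was lost when libraries were scaled by total counts (adjusted p = 0.0874).

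The other 3 guides with a negative interaction were scarce in wild type embryos. miR-2208b-3p held 2.32, 1.96 and 1.22 CPM in *hrpk-1(zen17)* L4 larvae, 1.97, 1.45 and 2.14 CPM in wild type L4 larvae, 5.86, 7.09 and 3.48 CPM in *hrpk-1(zen17)* embryos and 0.430, 0.470 and 0.383 CPM in wild type embryos. Its interaction was -3.64 (standard error 0.68, adjusted p = 0.00261). In the mutant, embryos lay above larvae, and in wild type below them. The wild type embryo values rest on 3, 3 and 1 counts, and miR-2208b-3p has a close paralog, miR-2208a-3p, with which reads may be shared. miR-5592-3p held 74.5, 128 and 61.3 CPM in *hrpk-1(zen17)* L4 larvae, 69.8, 18.8 and 74.8 CPM in wild type L4 larvae, 3.38, 7.29 and 5.49 CPM in *hrpk-1(zen17)* embryos and 0.286, 0.313 and 0.383 CPM in wild type embryos. Its interaction was -3.37 (standard error 0.86, adjusted p = 0.0312), from 2, 2 and 1 counts in wild type embryos. The adjusted p lay between 0.00214 and 0.160 over the alternatives, and passed in 14 of 23. miR-784-5p had 0 counts in wild type embryos and 5, 15 and 2 counts in *hrpk-1(zen17)* embryos. Against the floor of 3 counts over the wild type embryo group it was at least 3.21-fold higher in the mutant, and the interaction was at most -1.45 (adjusted p = 0.0457). This call passed in 8 of 23 alternatives, so it is the least certain of the 10, together with that of miR-5592-3p.

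miR-70-3p went the other way. Its gene sits in an intron of *pmp-5*, on the same strand, on chromosome V from 6665536 to 6665635. In L4 larvae it was at 9390, 9108 and 11422 CPM in *hrpk-1(zen17)* and at 4614, 831 and 7345 CPM in wild type. In embryos it was at 54.4, 78.3 and 57.5 CPM in *hrpk-1(zen17)*, against 268, 434 and 378 CPM in wild type. Mutant libraries were thus all above wild type at L4 and all below wild type in embryos. The embryo change of -2.51 passed the test (standard error 0.53, adjusted p = 0.00401) and the L4 change of 1.23 did not (standard error 0.51, adjusted p = 0.284). The interaction was 3.73 (standard error 0.73, adjusted p = 0.00374), with a 95% interval from 2.18 to 5.28. Wild type L4 replicate 2 was the lowest of the L4 libraries, and leaving it out gave an interaction of 3.33 (adjusted p = 0.000173). From embryo to L4, miR-70-3p increased by 7.30 in *hrpk-1(zen17)* and by 3.57 in wild type on the log2 scale.

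miR-74-5p, the star of miR-74, was the other strand with a positive interaction, and it was rare. It had 7, 9 and 9 counts in *hrpk-1(zen17)* L4 larvae and 2, 0 and 3 counts in wild type L4 larvae. In embryos it had 28, 25 and 21 counts in *hrpk-1(zen17)* and 31, 31 and 10 counts in wild type, or 2.78, 1.74 and 2.81 CPM against 4.44, 4.85 and 3.83 CPM. At both stages the groups did not overlap, above wild type at L4 and below it in embryos, but neither change passed the test by itself (adjusted p = 0.150 at L4 and 0.253 in embryos). The interaction was 3.12 (standard error 0.85, adjusted p = 0.0456). It passed in 9 of 22 alternatives. The guide of the hairpin, miR-74-3p, had an interaction of -0.01 (standard error 0.43), a sign that turned with RLE size factors (0.13).

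The strands that ranked next missed the threshold. miR-72-3p, a star, had an interaction of -1.44 (adjusted p = 0.0693), and miR-38-3p, of the mir-35 family, one of 1.42 (adjusted p = 0.0771). miR-72-3p was at 15.3, 17.8 and 15.1 CPM in *hrpk-1(zen17)* L4 larvae, against 36.9, 32.8 and 24.7 CPM in wild type L4 larvae, with the groups apart at L4 and overlapping in embryos. miR-38-3p was at 380, 576 and 463 CPM in *hrpk-1(zen17)* embryos, against 994, 922 and 1227 CPM in wild type embryos, with the groups apart in embryos and overlapping at L4. miR-38-3p passed in 6 of 24 alternatives. For the 238 strands that were not called, the 95% interval of the interaction lay within a 2-fold difference either way for 8 and reached beyond it for 230. A shared change of the mutant at both stages is therefore not shown for most of them.

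Read by family, the interactions were scattered. The lin-4 family had 2 members, both negative, with 1 called, beside 4.8% of all strands, and a median of -1.99. In the let-7 family, 6 members were tested, of which 4 were negative and 2 positive, 0 were called and the median was -0.44. Its values ran from -1.76 for miR-794-5p (adjusted p = 0.175) to 0.70 for let-7-5p (adjusted p = 0.663). In the mir-35 family, 8 members were tested, of which 4 were negative and 4 positive, 0 were called and the median was 0.16. The sign of that median, like those of miR-39-3p and miR-41-3p within the family, lies within the shift that another scale brings. In embryos the 8 mir-35 family changes lay between -1.15 and -0.09 with TMM scaling, and miR-38-3p was the only one that passed the test (adjusted p = 0.0161). The median embryo change over all strands was 0.08, against 0.38 with total counts as the scale, a shift larger than the smallest of these changes. The mir-51 family had 5 of 6 below 0 with a median of -0.60, and the mir-58 family, relatives of bantam that are among the most abundant miRNAs of the worm, had 3 of 4 tested above 0 with a median of 0.52. None of the members of those families was called. The mir-238 family stood at a median of -4.95, or -3.91 with miR-239b-5p at its bound, beside a median of -0.19 over all strands tested (-0.15 with 7 strands at their bound).

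**Figure D4:**
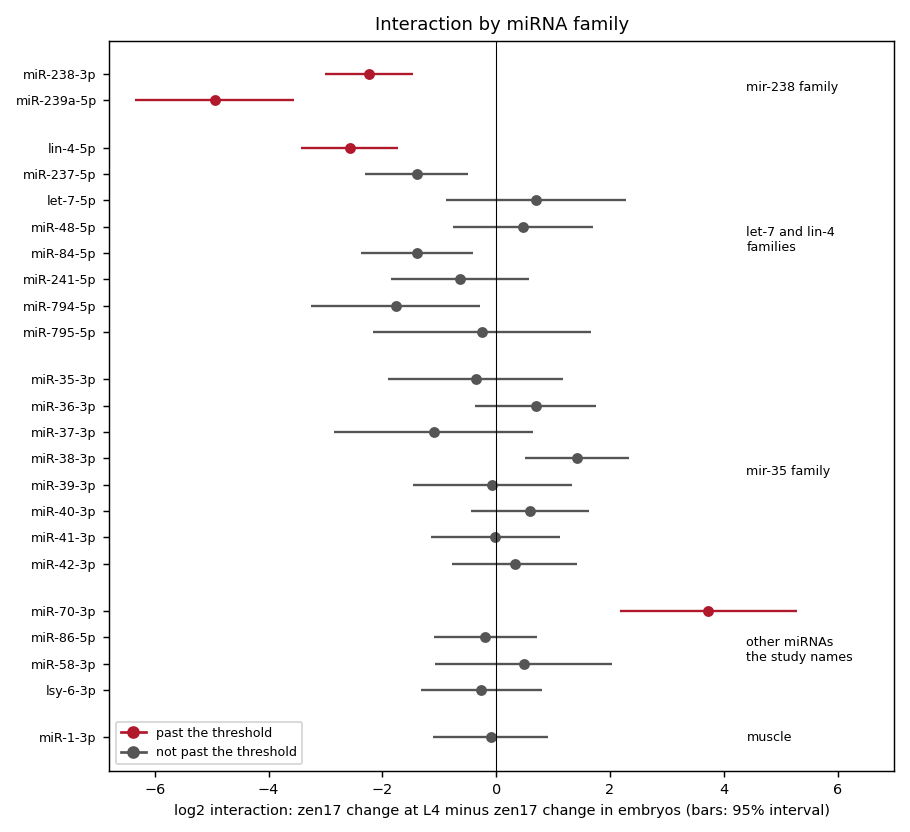
log2 interaction of single miRNAs by family, with the point as the estimate and the bar as its 95% interval; red marks an adjusted p under 0.05. miR-238-3p, miR-239a-5p and lin-4-5p lie below 0 and miR-70-3p lies above, whereas the intervals of most let-7 and mir-35 family members cross 0. miR-239b-5p is not drawn, since it had 0 counts in wild type embryos.

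Markers of muscle and of neurons did not pass the test. miR-1-3p, the muscle miRNA, differed by -0.53 at L4 and by -0.44 in embryos, with an interaction of -0.09 (standard error 0.48, adjusted p = 0.942) that turned to 0.08 with RLE size factors. The 3 neuronal miRNAs were not called, and all had a negative interaction, with a median of -1.20. miR-124-3p, a miRNA of sensory neurons, had -1.20 (standard error 0.56, adjusted p = 0.285) and passed when wild type embryo replicate 3 was left out, alone or with wild type L4 replicate 2. miR-791-3p had -1.75 (standard error 1.18, adjusted p = 0.490), and lsy-6-3p, which sets the left and right identity of a taste neuron pair, had -0.26 (standard error 0.50, adjusted p = 0.859). Of the 7 miRNAs that the study names from these data, 4 had a positive and 3 a negative interaction, and miR-70-3p was the only call. miR-86-5p was below wild type at both stages, with no overlap, and neither change passed the test. It held 307, 285 and 341 CPM in *hrpk-1(zen17)* L4 larvae, against 540, 954 and 468 CPM in wild type L4 larvae. It held 563, 462 and 552 CPM in *hrpk-1(zen17)* embryos, against 841, 820 and 1246 CPM in wild type embryos. The log2 changes were -1.07 and -0.88, and the interaction was -0.19 with a 95% interval from -1.10 to 0.72.

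The strands of a hairpin are made from the same precursor, so their interactions were set side by side. In 91 hairpins both strands were tested. miR-230-5p, the star of miR-230, had an interaction of -2.53 (adjusted p = 0.111) beside -3.77 for its guide, and miR-34-3p had -2.65 (adjusted p = 0.0852) beside -2.23. miR-2208b-5p had -1.77 (adjusted p = 0.490) beside -3.64. These stars had the sign of their guides, as did the stars of 55 of the 91 hairpins, and did not pass the test in the main fit. In the alternatives miR-34-3p passed in 5 of 22, while miR-230-5p and miR-2208b-5p passed in 0. In wild type embryos miR-230-5p had 0, 1 and 1 counts and miR-2208b-5p had 2, 4 and 0. The interactions of miR-230-5p and miR-2208b-5p are therefore uncertain. The star of miR-70 had 0, 1 and 0 counts in *hrpk-1(zen17)* embryos and 1, 2 and 2 counts in wild type embryos, too few for a comparison. The guide to star ratio was then tested within each library with limma, where the library scale cancels. The ratio changed differently at the stages for 1 of the 91 hairpins (1.1%), miR-5592 (-3.39, standard error 0.62, adjusted p = 0.00978), and 8 had an unadjusted p under 0.05. Its star had 1 count over the *hrpk-1(zen17)* embryos and 0 over the wild type embryos, so this value rests on the pseudocount of 0.5. With a pseudocount of 5 the adjusted p was 0.0546. The count of hairpins became 0 on leaving out *hrpk-1(zen17)* L4 replicate 3, 3 on leaving out wild type embryo replicate 3 and 2 on leaving out *hrpk-1(zen17)* embryo replicate 1.

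**Figure D5:**
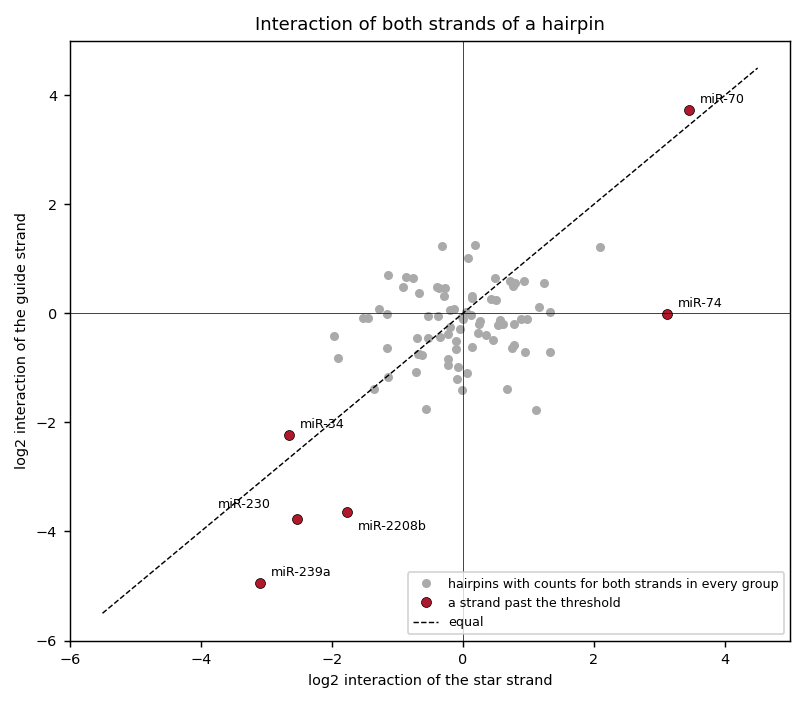
log2 interaction of the guide strand against that of the star strand for the 85 hairpins with counts for both strands in every group; 6 hairpins with a group at 0, among them miR-5592, are not drawn. Red marks the 6 hairpins with a called strand. miR-239a, miR-230, miR-34 and miR-2208b lie below 0 on both axes, miR-70 lies above 0 on both, though its star has too few embryo counts for its position to be read, and miR-74 lies above 0 on the star axis alone. The stars of miR-230 and miR-2208b also have few counts in wild type embryos.

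Position in the genome was looked at for the 240 strands whose gene was found by name in the WBcel235 annotation. Of these, 11 were called (4.58%). Chromosome X carried 7 of them among 79 tested (8.86%), both strands of miR-239a included, and chromosomes II, III, IV and V carried 1 each, among 47, 32, 33 and 23 tested. Chromosome I carried 0 of 26. miR-5592-3p was not matched. Genes of called strands with a miRNA neighbour within 10 kb on the same strand were compared with that neighbour. Close to mir-238 lie mir-80 and mir-90, whose guides had interactions of -0.49 and -0.75 beside -2.24. Close to mir-230 lies mir-791, whose guide had -1.75 (adjusted p = 0.490) beside -3.77, with 47, 2 and 31 counts in *hrpk-1(zen17)* embryos and 1, 3 and 4 counts in wild type embryos. mir-2208b, on chromosome IV from 1026580 to 1026640, lies close to mir-2209a, whose guide had -0.36 (adjusted p = 0.835) beside -3.64. That neighbour was higher in mutant embryos by 1.56 (adjusted p = 0.0282) and differed by 1.20 at L4 (adjusted p = 0.284). Close to mir-74, on chromosome X from 2369043 to 2369139, lie mir-73 and mir-75, whose guides had -0.09 and -0.72 beside 3.12 for the star of miR-74. mir-784 lies close to mir-5553, whose guide had 0 counts in embryos of both genotypes and gives no value. None of the other neighbours' interactions passed the test.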

How the data were processed

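The authors size selected small RNA on gels, built libraries with the NEXTflex Small RNA-Seq Kit v3 and sequenced them on an Illumina NextSeq. Cutadapt 1.15 and Bowtie are named in the submitters' processing notes, while neither the build nor the handling of multiply mapping reads is given in the sources used here. The authors deposited raw counts per mature miRNA strand, without normalization. From those counts, a model with the 4 groups was fitted in R 4.3.3. The contrasts were tested by edgeR 4.0.16 with TMM scaling and the quasi-likelihood test, and p-values were adjusted by Benjamini-Hochberg over the 250 strands at a threshold of 0.05. Levels are TMM-normalized CPM. The standard error was derived from the test statistic. Of the 371 strands, 31 were at 0 in all 12 libraries and 90 fell below the filter. For hairpins, limma 3.58.1 was applied to the log2 ratio of guide to star counts after adding 0.5 to each. A group at 0 was set to a floor of 3 counts over its 3 libraries. Such floors allow for counting error alone. Reads that are PCR copies do not count separate molecules, so limits drawn from the floors may be less firm than they look.

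Library pairs of a group differed by far more than sampling noise (chi-square per degree of freedom of 584 or more) and each was kept as a replicate. Alternatives were DESeq2 1.42.0, other scales and filters, the use of all 14 libraries, a block on replicate number, omission of each library by turns, a pseudocount of 5, and, chosen after seeing the data, both libraries that stand apart left out. Strands named are those that passed, the smallest p-values up to 15 in all, the mir-35, let-7 and lin-4 families, the miRNAs the study names, miR-1-3p, other strands of called hairpins and genomic neighbours. Members and lists were chosen with earlier results of these data known. Gene positions are from Ensembl release 115 (WBcel235); the count table holds no coordinates. The tests were also run on simulated counts, with any changes placed in *hrpk-1(zen17)* L4 larvae alone and no library standing apart. That run cannot tell how the tests behave with the libraries that stand apart here. Figures were drawn with matplotlib 3.10.9.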

Additional observations from a re-analysis of the deposited data

Results flagged for a closer look

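The difference between the change at L4 and the change in embryos passed edgeR's quasi-likelihood test for 12 strands, which is why each is listed here. The values on the log2 scale, L4 minus embryos, were -4.95 for miR-239a-5p, -3.77 for miR-230-3p, -2.58 for lin-4-5p, -2.24 for miR-238-3p, -3.64 for miR-2208b-3p, -3.10 for miR-239a-3p, -2.23 for miR-34-5p, -3.37 for miR-5592-3p, 3.73 for miR-70-3p and 3.12 for miR-74-5p. For miR-239b-5p and miR-784-5p, with 0 counts in wild type embryos, the values are upper limits of -3.91 and -1.45. The guide to star ratio of miR-5592 also changed differently at the stages (-3.39, limma), a value set largely by its near absent star in embryos.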

How the results depend on the processing

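The count of strands with an interaction was 12 and lay between 9 and 15 when a library was left out. It was 19 with DESeq2 (7 positive, 12 negative) and 4 when every library needed 10 counts, a filter that tested 148 strands. In embryos the count of 30 lay between 17 and 45 when a library was left out, and was 46 with DESeq2, 18 with 10 counts in every library and 16 with a replicate block within each stage. At L4 the count of 0 lay between 0 and 5 when a library was left out, and was 6 with DESeq2, 1 with total counts and 3 with no filter. The guide to star count of 1 was 0 to 3 when a library was left out, 2 with a pseudocount of 5 and 0 for stars with at least 50 counts in 3 libraries. Leaving out both libraries that stand apart, an alternative chosen after seeing the data, gave 50 calls in embryos, 7 at L4 and 2 for the guide to star ratio. The causes of these differences were not tested. Same-numbered libraries did not deviate together (correlations of -0.34 to 0.10), and no pairing was used in the main fit. Deviations within groups of 3 libraries cannot decide whether same-numbered libraries were prepared together. With a replicate block 9 interactions, 23 embryo changes and 0 L4 changes passed. Of 277 alternative values of the 12 called strands, 239 kept direction and call, 38 lost the call and 0 changed sign.

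Among named strands that were not called, some changed sign. With DESeq2 the values were 0.37 for miR-5592-5p, 0.13 for miR-74-3p, 0.21 for miR-39-3p, 0.15 for miR-41-3p, 0.0075 for miR-795-5p, 0.084 for miR-1-3p and 0.16 for miR-73-3p. With RLE size factors they were 0.13 for miR-74-3p, 0.21 for miR-39-3p, 0.14 for miR-41-3p, 0.037 for miR-795-5p, 0.084 for miR-1-3p and 0.16 for miR-73-3p. With TMM within each stage they were 0.0012 for miR-74-3p, 0.0057 for miR-39-3p and 0.0049 for miR-41-3p. Total counts gave -0.31 for miR-42-3p, and all 14 libraries gave 0.031 for miR-39-3p. With a replicate block they were 0.077 for miR-39-3p, 0.33 for miR-41-3p, 0.11 for miR-795-5p and -0.0055 for miR-5553-3p, and with a block within each stage 0.12, 0.28 and 0.33 for miR-39-3p, miR-41-3p and miR-795-5p. Without both libraries that stand apart they were 0.053 for miR-35-3p, 0.21 for miR-39-3p, 0.72 for miR-41-3p, 0.12 for miR-86-5p, -0.23 for miR-58-3p, 0.12 for miR-73-3p and -0.29 for miR-5553-3p. With a library left out the ranges were -2.46 to 0.023 for miR-5592-5p, -0.31 to 0.16 for miR-74-3p, -0.82 to 0.39 for miR-35-3p, -1.66 to 0.067 for miR-37-3p, -0.51 to 0.74 for miR-39-3p, -0.50 to 0.83 for miR-41-3p, -0.84 to 0.66 for miR-795-5p, -0.52 to 0.20 for miR-1-3p, -0.41 to 0.27 for miR-86-5p, -0.54 to 0.094 for lsy-6-3p, -0.86 to 0.11 for miR-2209a-3p, -0.39 to 0.22 for miR-73-3p and -0.29 to 0.49 for miR-5553-3p. The miR-5553-3p values carry no information, since it had 0 counts in all embryos. Depth limits the scarce strands, 11 of which had 0 counts in a group.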
